A study of Rattus norvegicus with 16 samples.

Results

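MicroRNAs of the rat hippocampus after fluid percussion brain injury and treatment with the drug that the labels call PMI were compared with those of naive hippocampus. The comparison rests on 5 of the 16 arrays of the series, namely replicates 1 and 2 of the injured, PMI-treated rats (TBI+PMI) and replicates 1 to 3 of the naive rats, which shared 1 slide. TBI+PMI replicate 3 was hybridised on the other slide and was left out. All rats were male Sprague-Dawley animals, and each array held whole hippocampus RNA of 1 rat taken at 24 h. TBI+PMI rats received a severe lateral fluid percussion injury and the drug, whose dose, vehicle and time of injection are not given in the sources used here. 3 further arrays of the slide held injured rats without a drug (TBI), and the naive rats were killed with neither injury nor treatment. Injury, surgery and drug therefore cannot be told apart in TBI+PMI against naive, and only the comparison with TBI bears on the drug. The arrays carried probes for 350 miRNAs, with 3814 and 3098 spots well above background on the TBI+PMI arrays and 2910, 3823 and 3528 on the naive arrays, of 7000 spots each, and 0 spots were saturated. The naive arrays lay in 1 row of the slide and the TBI+PMI arrays in the other, so this position and the group cannot be told apart. TBI replicate 1 lay in the row of the naive arrays, and TBI replicates 2 and 3 in that of the TBI+PMI arrays.

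A mature miRNA is a short RNA that loads into an Argonaute protein and pairs with messenger RNAs, mainly through its seed, the bases 2 to 8 from the 5′ end. miRNAs with the same seed can share targets, and many miRNA genes lie in clusters that are transcribed together. In brain, miR-124, miR-9 and miR-128 are enriched in neurons, miR-223 and miR-142 come from blood and immune cells, and the large imprinted Dlk1-Dio3 locus is transcribed mostly in neurons. miR-21 is a widely expressed miRNA induced in injured and inflamed tissue. In RNA of whole tissue, fewer cells of a type and less RNA per cell cannot be told apart.

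Sequences of miRNAs on which the results turn are shown first where matched, with the seed in capitals, so that shared seeds can be read beside the values. They are RefSeq's mature sequences on GRCr8, matched through the sequence of the array probe, which gave 1 mature sequence for 159 of the 177 tested miRNAs. miR-383 and miR-335, which both passed the adjusted threshold, were not among the 159, so neither is shown. Of the miRNAs past the adjusted threshold or next to it, miR-21 lies at chr10:71902653-71902674 on the minus strand, miR-873 at chr5:56153150-56153170 on the minus strand within the span of Lingo2, and miR-433, miR-379 and miR-376b-5p on the plus strand of chromosome 6 in the Dlk1-Dio3 locus (chr6:134327421-134327442, chr6:134543460-134543480 and chr6:134558876-134558897).
miR-21: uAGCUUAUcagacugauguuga
miR-379: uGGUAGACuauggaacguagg
miR-376b-5p: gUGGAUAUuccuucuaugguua
miR-433: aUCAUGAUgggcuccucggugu
miR-873: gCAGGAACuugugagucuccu
miR-223: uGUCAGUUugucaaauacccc
miR-193: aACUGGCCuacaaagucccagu

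The cluster that runs to miR-92a from miR-17 (miR-17 cluster) and the paralogous miR-106b-25 cluster share some seeds and lie at different places. The first lies on chromosome 15 (miR-17-5p at chr15:98587861-98587883) and the second on chromosome 12 within the span of Mcm7 (miR-106b at chr12:22157103-22157123). miR-17-5p, miR-19b and miR-92a each have a copy of identical mature sequence on chromosome X. Their signals therefore cannot be assigned to chromosome 15 alone. The first 4 of the sequences below share one seed, the next 2 another, and the last 2 a further one.
miR-17-5p: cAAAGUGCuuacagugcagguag
miR-20a: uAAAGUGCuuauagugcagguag
miR-93: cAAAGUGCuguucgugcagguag
miR-106b: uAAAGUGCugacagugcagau
miR-19a: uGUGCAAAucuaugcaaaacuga
miR-19b: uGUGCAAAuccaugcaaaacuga
miR-92a: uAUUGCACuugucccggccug
miR-25: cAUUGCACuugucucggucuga

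In TBI+PMI hippocampus miR-21 rose 2.63-fold and 4 miRNAs fell, miR-383 by 2.21-fold, miR-335 by 1.87-fold, miR-376b-5p by 1.69-fold and miR-379 by 1.59-fold relative to naive hippocampus. These 5 of 177 tested miRNAs (2.82%; 0.565% higher and 2.26% lower) passed limma's Benjamini-Hochberg adjusted threshold of 0.05, each at an adjusted p of 0.0323. At an unadjusted p under 0.05 there were 10 higher (5.65%) and 40 lower (22.6%), or 28.2%. The tested miRNAs were those for which all arrays of TBI+PMI, all arrays of naive, or both, gave a signal well above background. Of the 177, 165 met this in both groups, 11 only through TBI+PMI and 1 only through naive, and the other 173 miRNAs of the array were not tested. Values are log2 of the spot intensity divided by the array's 75th percentile, so that 0 is the signal at that percentile and 1 unit is a doubling, with a floor of -6.73. Both TBI+PMI arrays lay above all 3 naive arrays for 11 miRNAs (6.21%) and below all 3 for 59 (33.3%), or 39.5% in either direction, and the groups overlapped for the rest. The median difference over the 177 was -0.11, and 119 means were lower (67.2%). That excess depended on the scaling, since 42.9% of the means were lower with the percentile taken over all probes and 29.9% with no scaling. In the authors' processed table, which held 161 of the 177, 45.3% were lower.

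**Figure D1:**
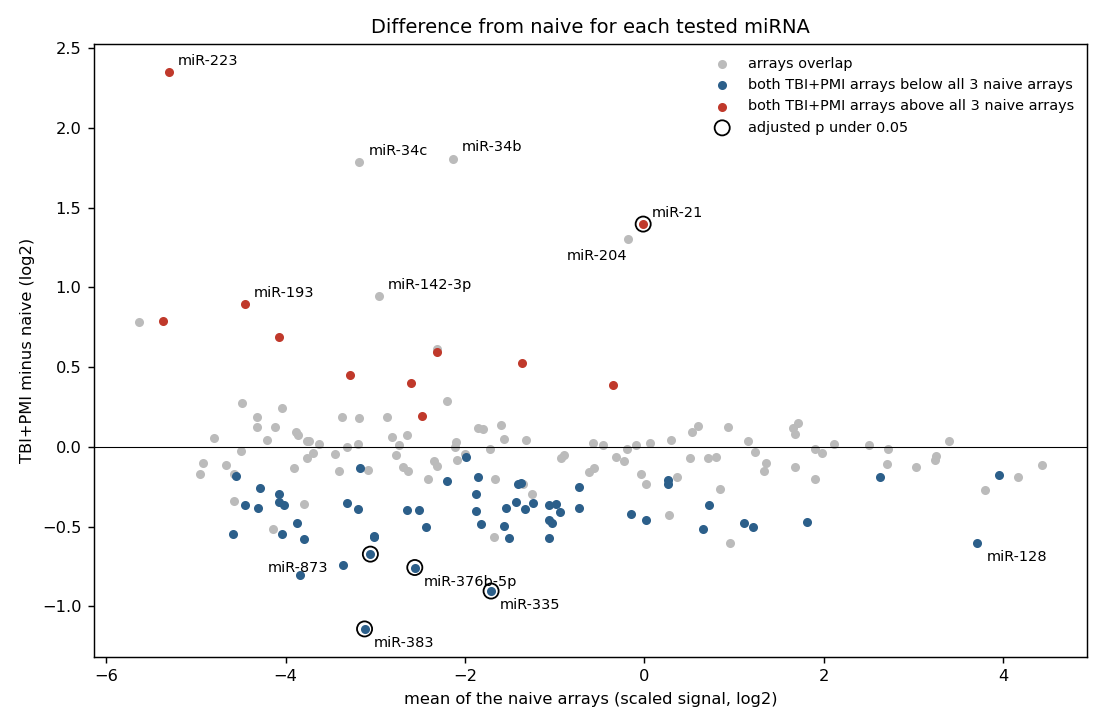
Difference between TBI+PMI and naive means (log2, y axis) against the mean of the naive arrays (scaled signal, log2, x axis) for the 177 tested miRNAs. The 59 miRNAs whose TBI+PMI arrays lay below all naive arrays span most of the range of levels, the 11 above are fewer, and the 5 circled miRNAs passed the adjusted threshold.

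miR-21 had scaled signals of 1.03 and 1.74 in TBI+PMI hippocampus, 0.50, 1.85 and 1.73 in TBI hippocampus, and -0.05, 0.11 and -0.10 in naive hippocampus. All injured arrays, with or without the drug, were above all naive arrays, and the lowest injured array was TBI replicate 1. The difference from naive was 1.40 ± 0.22 (SE, 95% interval 0.86 to 1.93, adjusted p = 0.0323, limma), and its second probe gave 1.73. TBI+PMI and TBI differed by 0.03 with an interval of -1.06 to 1.11 (adjusted p = 0.969), which allows about a doubling in either direction.

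miR-383 was at -4.34 and -4.19 in TBI+PMI hippocampus, -3.86, -3.36 and -3.68 in TBI hippocampus and -2.85, -3.38 and -3.13 in naive hippocampus. The TBI+PMI arrays were the lowest of the 8, below the TBI arrays as well as the naive ones. The difference from naive was -1.14 ± 0.18 (SE), and from TBI it was -0.63 (interval -1.05 to -0.21, unadjusted p = 0.0101), which did not pass over all 176 miRNAs tested there (adjusted p = 0.695, limma). Its other probe gave a difference from naive of -1.34.

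miR-335, processed from an intron of the imprinted gene Mest, was at -2.50 and -2.73 in TBI+PMI hippocampus, -2.63, -1.87 and -2.54 in TBI hippocampus and -1.70, -1.74 and -1.69 in naive hippocampus. The naive arrays lay close to each other and above every injured array. The difference from naive was -0.91 ± 0.13 (SE), and that from TBI was -0.27 (interval -0.87 to 0.34).

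miR-376b-5p was at -3.42 and -3.21 in TBI+PMI hippocampus, -3.26, -2.74 and -3.15 in TBI hippocampus and -2.56, -2.52 and -2.60 in naive hippocampus, a difference from naive of -0.76 ± 0.12 (SE). miR-379 was at -3.75 and -3.71 in TBI+PMI hippocampus, -3.45, -3.37 and -3.57 in TBI hippocampus and -3.05, -3.11 and -3.0 in naive hippocampus, a difference from naive of -0.67 ± 0.11 (SE). Both come from the Dlk1-Dio3 locus, and for miR-379 the 3 groups did not overlap, with TBI between the others. The differences between TBI+PMI and TBI were -0.27 for each (intervals -0.72 to 0.19 for miR-376b-5p and -0.55 to 0.02 for miR-379), and neither passed the adjusted threshold.

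**Figure D2:**
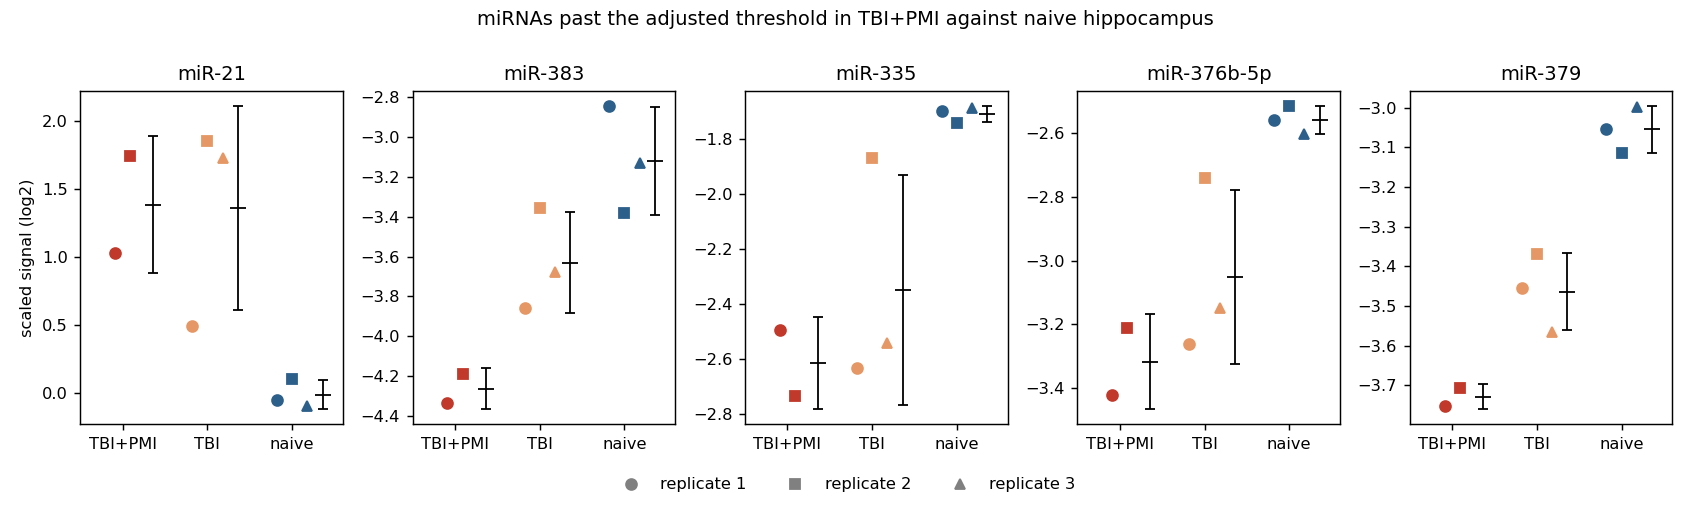
Scaled signal (log2, y axis, a range of its own in each panel) on each array of TBI+PMI, TBI and naive hippocampus for the 5 miRNAs past the adjusted threshold; bars are the mean ± SD of each group. miR-21 lies higher and the other 4 lower on both TBI+PMI arrays than on any naive array, and the TBI arrays lie between the groups or among the TBI+PMI arrays, apart from TBI replicate 2, which is the highest array for miR-21 and lies within the naive range for miR-383.

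These 5 calls rested on few arrays. Without TBI+PMI replicate 1 only miR-21 passed. Without TBI+PMI replicate 2, naive replicate 1 or naive replicate 3 none of the 177 passed (limma; 47, 38 and 26 at an unadjusted p under 0.05). Without naive replicate 2 there were 9 higher and 6 lower. An exact two-sided permutation test of 2 against 3 arrays cannot give a p below 0.1, so no single miRNA could be called by it. The 5 differences kept their sign in the 21 alternatives run, between 1.04 and 1.81 for miR-21, -1.27 and -0.77 for miR-383, -1.04 and -0.63 for miR-335, -0.86 and -0.48 for miR-376b-5p, and -0.71 and -0.39 for miR-379.

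Next to these calls stood miR-433 and miR-873. miR-433, a Dlk1-Dio3 miRNA within the span of Rtl1, was at -3.54 and -3.62 in TBI+PMI hippocampus against -3.07, -3.0 and -2.99 in naive hippocampus (-0.56 ± 0.11 SE, adjusted p = 0.0726, limma). miR-873 was at -4.19 and -4.01 in TBI+PMI hippocampus against -3.28, -3.59 and -3.21 in naive hippocampus (-0.74 ± 0.16 SE, adjusted p = 0.0749, limma). Neither passed with these 5 arrays, although no TBI+PMI array overlapped a naive one, and both passed when only the 165 miRNAs well above background on all 5 arrays were tested.

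The Dlk1-Dio3 locus, an imprinted region whose miRNAs are expressed from the maternal chromosome, held much of the lower side. Of its 40 listed miRNAs on the array 26 were tested, and 25 of the 26 had a lower mean in TBI+PMI than in naive hippocampus, against 119 of all 177. The other member, miR-431, was tested only through the TBI+PMI arrays. For 18 of the 26 (69.2%, against 33.3% of all tested) both TBI+PMI arrays were below every naive array. At an unadjusted p under 0.05, 14 of the 26 were lower, against 40 of all 177 (22.6%). Past the adjusted threshold 1 was lower, miR-379, against 4 of all 177 (2.26%). The list's median difference was -0.39 beside -0.11 over all tested miRNAs, and it kept its sign in the 20 alternatives run for it, between -0.54 without TBI+PMI replicate 2 and -0.11 with no scaling. Without TBI+PMI replicate 1 it was -0.26.

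Its brightest members were miR-434 and miR-127, which target the Rtl1 transcript from the opposite strand. miR-434 was at 0.62 and 0.79 in TBI+PMI hippocampus, 0.91, 1.17 and 0.95 in TBI hippocampus and 1.30, 1.10 and 1.22 in naive hippocampus. miR-127 was at 0.50 and 0.76 in TBI+PMI hippocampus, 0.86, 0.79 and 0.77 in TBI hippocampus and 1.12, 1.05 and 1.16 in naive hippocampus. For both, the TBI+PMI arrays were the lowest of the 8, and the differences from naive were -0.50 and -0.48 with adjusted p of 0.0834 and 0.0978 (limma). The member that went the other way was miR-431, at -4.04 and -4.38 in TBI+PMI hippocampus against -4.63, -4.29 and -4.54 in naive hippocampus, with overlapping arrays.

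Counted by position instead of by list, 30 tested miRNAs with a matched mature sequence lay between the outermost matched hairpins of the list (chr6:134321201-134579828 on GRCr8). Of these 29 had a lower mean and 22 (73.3%) lay below all naive arrays without overlap, against 37 of the other 147 (25.2%). The other 147 include all tested miRNAs without a matched sequence. Among those is miR-136 of the list, which lay below all naive arrays. The median difference was -0.40 for the 30 and -0.06 for the other 147. The 5 that the list did not name, miR-376b-5p, miR-379*, miR-136*, miR-341 and miR-543*, include 4 other arms of listed hairpins. miR-758 was not tested, since it was well above background on 1 TBI+PMI and 2 naive arrays. Its values were -5.22 and -5.50 in TBI+PMI hippocampus and -4.90, -4.71 and -4.77 in naive hippocampus.

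Both arms of a hairpin are measured by separate probes, so they give a second reading of a transcript where they come from the same copy. Arms were paired here by name. miR-7a, miR-129 and miR-181a have 2 copies each, while miR-7a*, miR-129* and miR-181a* have 1, so these arms need not share a transcript. Both arms were tested for 18 hairpins, of which 14 had lower means for both arms, 3 higher means for both and 1 means of opposite sign. The 5 of these 18 with both arms below all naive arrays were miR-129, miR-136, miR-324, miR-376b and miR-379. Of single tested miRNAs, 67.2% had a lower mean and 33.3% lay below all naive arrays, which are not shares of pairs. Among the 5, miR-136, miR-376b and miR-379 belong to the Dlk1-Dio3 locus already counted above. For miR-136 the differences were -0.37 and, for miR-136*, -0.48, and for miR-379 they were -0.67 and, for miR-379*, -0.55, the last tested only through the naive arrays. The hairpin of opposite sign was miR-7a, at -0.60, with miR-7a* at 0.18, and for both arms the arrays overlapped.

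The miR-17 cluster, a transcript known for promoting proliferation and restraining cell death, stood on the other side. Of its 7 members on the array 5 were tested, 4 of them well above background on all arrays of both groups. For these 4 both TBI+PMI arrays were above every naive array, against 8 of the 165 miRNAs that met this in both groups (4.85%). All 4 were higher at an unadjusted p under 0.05, against 7 of the 165, and none passed the adjusted threshold. miR-17-5p was at -3.62 and -3.15 in TBI+PMI hippocampus, -3.65, -3.15 and -3.14 in TBI hippocampus and -4.26, -3.95 and -4.02 in naive hippocampus. The difference from naive was 0.69 ± 0.18 (SE, 1.61-fold, adjusted p = 0.0967, limma), and replicate 1 was the lower array in both injured groups. miR-19a was at -4.89 and -4.27 in TBI+PMI hippocampus and -5.78, -5.04 and -5.29 in naive hippocampus, and it was tested only through the TBI+PMI arrays, since 2 of the 3 naive arrays were above background.

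The other tested members were closer to naive. miR-20a differed by 0.60, miR-19b by 0.52 and miR-92a by 0.40, with adjusted p of 0.103, 0.103 and 0.146 (limma). The median of the 4 members measured in both groups was 0.56 beside -0.12 over the 165. With miR-19a included it was 0.60, with no change of sign in the 20 alternatives (0.38 to 0.88). miR-18a was not tested, being above background on 1 TBI+PMI and 1 naive array, and its values were -5.79 and -5.25 in TBI+PMI hippocampus and -6.73, -6.36 and -6.72 in naive hippocampus. miR-17-3p gave no signal above the floor in either group.

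The paralog cluster offered the seeds of miR-17-5p, miR-20a and miR-92a from another transcript, and its values were nearer to naive. None of its tested members carried the seed of miR-19a and miR-19b. miR-106b was at -1.83 and -1.66 in TBI+PMI hippocampus against -2.02, -1.73 and -1.82 in naive hippocampus, and miR-93 at -2.89 and -2.61 against -2.97, -2.70 and -2.77. Both overlapped, with differences of 0.12 and 0.06, although they carry the seed of miR-17-5p and miR-20a. miR-25, with the seed of miR-92a, was at -2.35 and -2.22 in TBI+PMI hippocampus against -2.42, -2.47 and -2.57 in naive hippocampus, above all naive arrays by a difference of 0.20 (adjusted p = 0.372, limma). miR-20b-5p and miR-363 of a further paralog cluster were not well above background on any of the 5 arrays. The difference between the clusters was not tested.

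**Figure D3:**
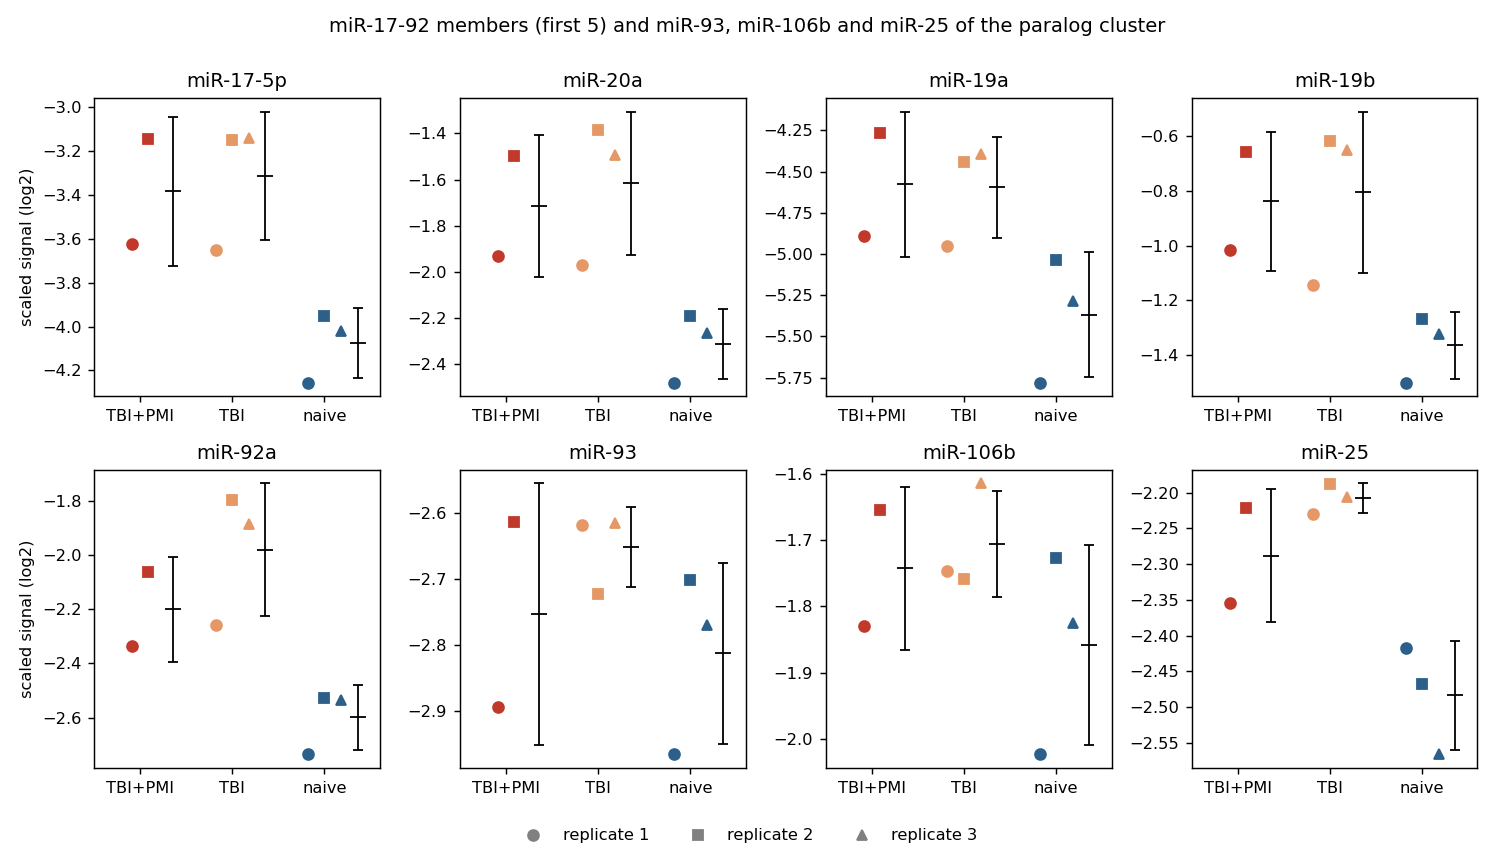
Scaled signal (log2, y axis, a range of its own in each panel) on each array of TBI+PMI, TBI and naive hippocampus for 5 members of the miR-17 cluster and for miR-93, miR-106b and miR-25; bars are the mean ± SD of each group. Both TBI+PMI arrays lie above all naive arrays for the 5 cluster members and miR-25, and overlap them for miR-93 and miR-106b.

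miR-223, a miRNA of neutrophils and monocytes, was at -4.06 and -1.84 in TBI+PMI hippocampus, -5.07, -2.17 and -2.16 in TBI hippocampus and -5.96, -4.19 and -5.75 in naive hippocampus. It was tested only through the TBI+PMI arrays, since 2 of the 3 naive arrays were above background, so the difference of 2.35 between the means is not exact. TBI+PMI replicate 1 lay only just above the highest naive array, and the adjusted p was 0.128 (limma). miR-142-3p, of blood cells in general, was at -2.63 and -1.39 in TBI+PMI hippocampus, -2.89, -1.70 and -1.62 in TBI hippocampus and -3.27, -2.58 and -3.03 in naive hippocampus, and its groups overlapped. miR-150, of mature lymphocytes, went the other way, at -1.57 and -1.30 in TBI+PMI hippocampus against -1.07, -0.97 and -1.16 in naive hippocampus (-0.37, adjusted p = 0.150, limma).

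Red cell miRNAs varied as widely within groups as between them. miR-451 was at -2.27 and -1.12 in TBI+PMI hippocampus and -2.25, -1.29 and -3.38 in naive hippocampus, and miR-144 at -5.37 and -4.34 in TBI+PMI hippocampus and -5.81, -4.36 and -6.73 in naive hippocampus. In both groups replicate 2 held the most of both. The summed scaled signal of the red cell list was 0.231 and 0.510 in TBI+PMI hippocampus and 0.228, 0.457 and 0.105 in naive hippocampus. That of the immune cell list was 0.568 and 1.09 in TBI+PMI hippocampus and 0.609, 0.744 and 0.598 in naive hippocampus. On each of these arrays its brightest member was miR-150, which went the other way from miR-223 and miR-142-3p. The part of blood in the differences of miR-223, miR-142-3p and the miR-17 cluster was not tested.

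Apart from miR-21, the miRNAs of inflammation showed little. miR-146a and miR-146b, which NF-kB induces, differed from naive by 0.19 each with overlapping arrays, and miR-221 and miR-222 by 0.01 and -0.09. miR-193 and miR-365, transcribed together on chromosome 10, were above all naive arrays. miR-193 was at -3.81 and -3.30 in TBI+PMI hippocampus against -4.94, -4.05 and -4.38 in naive hippocampus (a difference of 0.90, adjusted p = 0.128, limma), and it was tested only through the TBI+PMI arrays, since 2 of the 3 naive arrays were above background. miR-365 was at -3.02 and -2.64 in TBI+PMI hippocampus against -3.49, -3.14 and -3.22 in naive hippocampus (0.45, adjusted p = 0.157, limma). The 11 miRNAs above all naive arrays were thus miR-21, miR-223, miR-193, miR-365, miR-25, miR-27a and the 5 tested members of the miR-17 cluster. Of these, miR-223, miR-193 and miR-19a were tested only through the TBI+PMI arrays.

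All 8 listed miRNAs enriched in neurons were tested, and 2 of them (miR-128 and miR-129), or 25%, lay below all naive arrays against 33.3% of all tested. All 8 means were lower in TBI+PMI hippocampus, where 67.2% of all means were lower, and none passed the adjusted threshold. miR-128, which restrains neuronal excitability, was at 3.00 and 3.22 in TBI+PMI hippocampus, 3.31, 3.60 and 3.43 in TBI hippocampus and 3.84, 3.53 and 3.78 in naive hippocampus. Its difference from naive was -0.60 ± 0.15 (SE, adjusted p = 0.0834, limma). miR-124, the most neuron-specific of the list, was at 3.33 and 3.72 in TBI+PMI hippocampus against 3.86, 3.66 and 3.86 in naive hippocampus and overlapped (-0.27). The median of the list was -0.25 beside -0.11 over all tested miRNAs, and that of the list became -0.06 without TBI+PMI replicate 1 and 0.03 with no scaling. miR-7a and miR-7b, also rich in neurons, differed by -0.60 and -0.56, and for both naive replicate 1 fell among the TBI+PMI values.

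**Figure D4:**
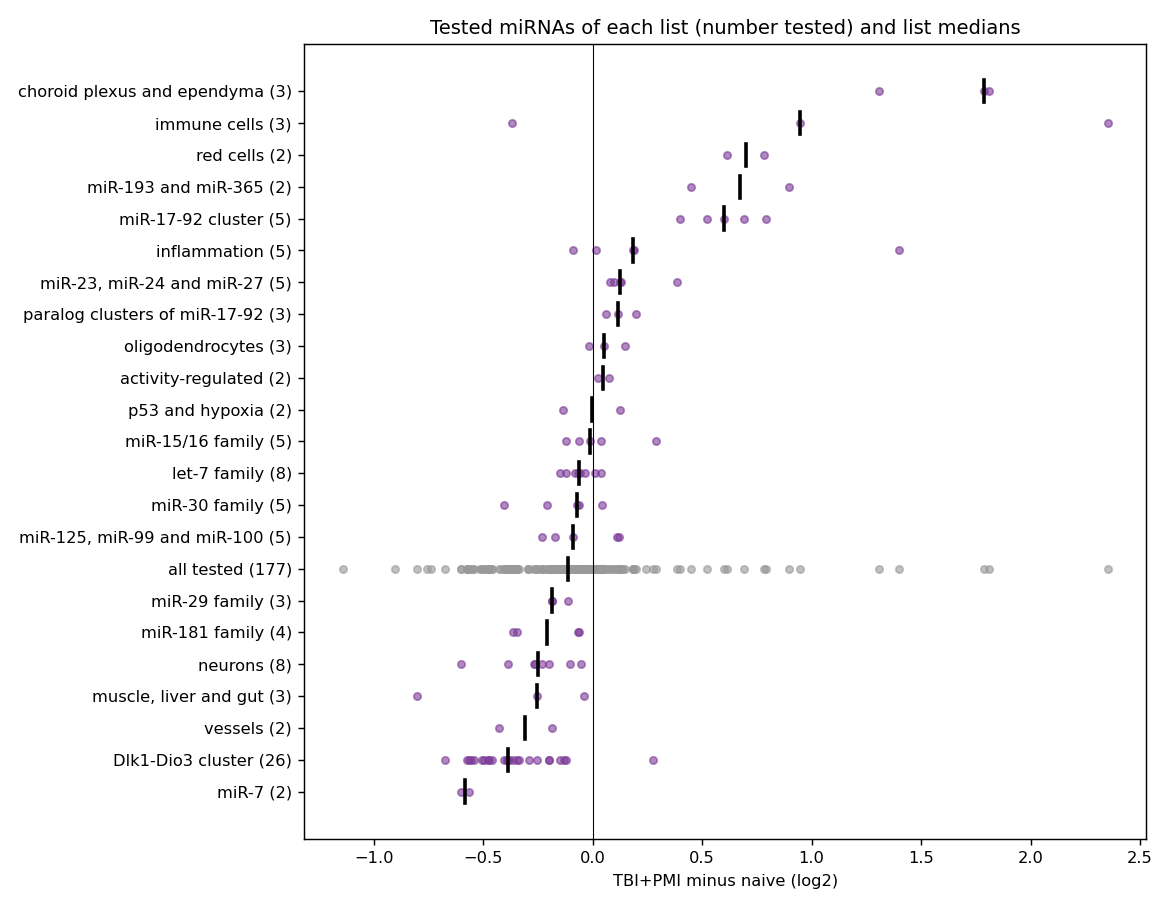
Difference between TBI+PMI and naive means (log2, x axis) of every tested miRNA, by list (y axis, number tested in parentheses), with all 177 as 1 row; each dot is a miRNA and each black bar the median of its row. The highest medians are those of the choroid plexus, immune cell, red cell, miR-193 and miR-365, and miR-17 cluster rows. The lowest are those of the miR-7 and Dlk1-Dio3 rows. In the immune cell row miR-150 lies to the left of the median of all tested miRNAs.

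Among the broadly expressed families no member passed. The 8 let-7 miRNAs, which oppose proliferation, had a median difference of -0.06, the 3 miR-29 miRNAs, which target collagens, -0.19, the 5 miR-30 miRNAs -0.07 and the 5 miR-15/16 miRNAs -0.01, and each of these medians changed sign or became 0 under other scalings. The miR-181 family, of 4 miRNAs with 1 seed, had a median of -0.21, which was 0.07 with no scaling. Within it miR-181c was at -4.50 and -4.25 in TBI+PMI hippocampus against -3.95, -4.02 and -4.08 in naive hippocampus (-0.36, adjusted p = 0.146, limma), and miR-181d was close to it at -0.34. The much brighter miR-181a of the same seed differed by -0.07. The 5 miRNAs of the miR-23, miR-24 and miR-27 list had higher means, where 32.8% of all tested means were higher, and 1 of them, miR-27a (0.39), lay above all naive arrays, against 6.21% of all tested.

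miR-15b, whose family restrains Bcl2, was at -2.08 and -1.76 in TBI+PMI hippocampus, -1.95, -1.91 and -1.73 in TBI hippocampus and -2.39, -2.04 and -2.19 in naive hippocampus, and TBI+PMI replicate 1 fell among the naive arrays (0.29, adjusted p = 0.335, limma). miR-132 and miR-212, which neuronal activity induces, differed by 0.02 and 0.07, and the oligodendrocyte miRNAs miR-219-5p and miR-338 by 0.15 and -0.02. The probes of miR-338 disagreed in sign, the only such case among 51 named miRNAs with several probes above background. miR-34a, a p53 target, and miR-210, induced by hypoxia, differed by -0.14 and 0.13 with overlapping arrays.

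The defining miRNAs of choroid plexus and ependyma set TBI+PMI replicate 1 apart. miR-204, abundant in choroid plexus epithelium, was at 2.56 and -0.31 in TBI+PMI hippocampus, -0.59, -0.96 and -0.60 in TBI hippocampus and -0.89, 1.03 and -0.68 in naive hippocampus. miR-34b, of ciliated cells, was at 0.61 and -1.26 in TBI+PMI hippocampus, -1.36, -2.60 and -1.86 in TBI hippocampus and -3.34, -0.90 and -2.17 in naive hippocampus. TBI+PMI replicate 1 was the highest of the 8 arrays for both, and naive replicate 2 the highest of its group. Summed over the 10 listed miRNAs, the scaled signal was 8.22 and 1.49 in TBI+PMI hippocampus, 1.31, 0.823 and 1.13 in TBI hippocampus and 0.751, 2.89 and 1.03 in naive hippocampus. Only 3 of the 10 were tested, and miR-200a, miR-200b, miR-200c, miR-141, miR-429 and miR-449a were at the floor on all 5 arrays.

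With both of these arrays left out, 1 miRNA, miR-223, passed and the lower calls were 0, and the 5 differences kept their sign (miR-21 1.81, miR-383 -1.20, miR-335 -1.04, miR-376b-5p -0.63 and miR-379 -0.68). That fit has 1 TBI+PMI array, assumed to vary like the naive ones. Of vessels, miR-143 of smooth muscle was at 0.01 and -0.32 in TBI+PMI hippocampus and -0.19, 1.44 and -0.42 in naive hippocampus, naive replicate 2 again standing apart. The liver miRNA miR-122 and the muscle miRNAs miR-206 and miR-208 were at the floor on all 5 arrays. miR-133b, of muscle but also reported in midbrain neurons, was at -4.70 and -4.59 in TBI+PMI hippocampus against -3.98, -3.25 and -4.29 in naive hippocampus (-0.81, adjusted p = 0.146, limma). The part of choroid plexus, vessels and other tissue in the differences was not tested.

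**Figure D5:**
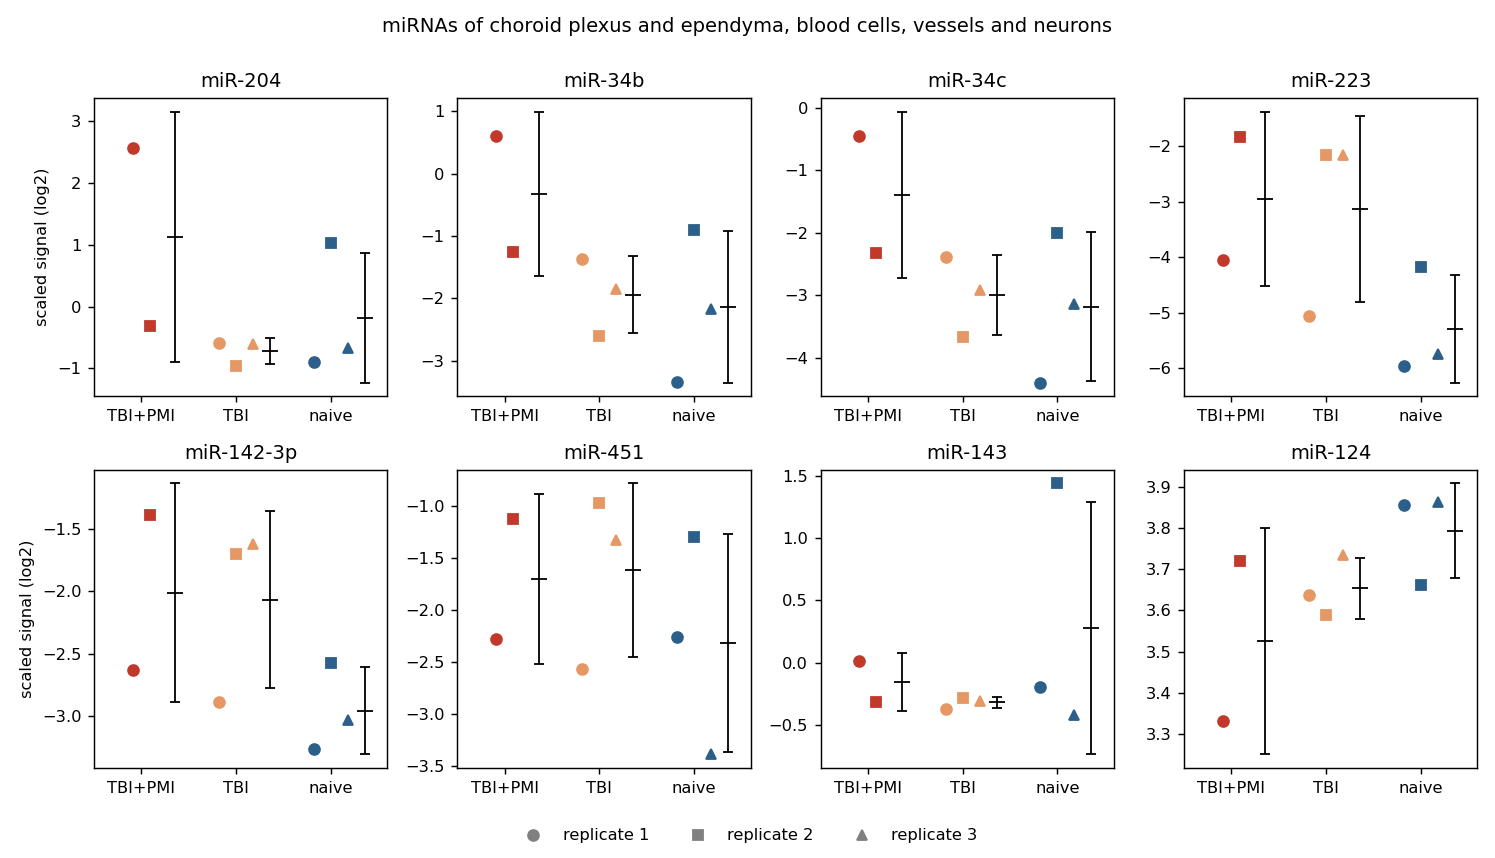
Scaled signal (log2, y axis, a range of its own in each panel) of miRNAs of choroid plexus and ependyma (miR-204, miR-34b, miR-34c), immune and red cells (miR-223, miR-142-3p, miR-451), vessels (miR-143) and neurons (miR-124) on each array of TBI+PMI, TBI and naive hippocampus; bars are the mean ± SD of each group. TBI+PMI replicate 1 is the highest array for the first 3, and naive replicate 2 the highest naive array for all but miR-124.

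Whether injured hippocampus differed with the drug was tested by TBI+PMI against TBI on the same slide. No vehicle is given for the TBI rats, so the drug and its administration cannot be told apart there. The TBI arrays were split over both rows of the slide, and the part of the row was not tested. Of 176 miRNAs 0 passed the adjusted threshold (0%), and 10 had an unadjusted p under 0.05, 4 higher (2.27%) and 6 lower (3.41%), or 5.68%. The lowest p was that of miR-383. Both TBI+PMI arrays were below all TBI arrays for 33 miRNAs (18.8%) and above them for 5 (2.84%). The Dlk1-Dio3 list had a median of -0.19 in TBI+PMI against TBI and -0.20 in TBI against naive, 2 comparisons that share the TBI arrays, and 25 of its 26 tested members had a lower mean in TBI+PMI than in TBI, against 129 of 176 over all miRNAs. For the miR-17 cluster, the median was -0.07 against TBI, and 4 of 5 means were lower in TBI+PMI. The 3 tested choroid plexus and ependyma miRNAs were the largest positive differences from TBI, with miR-34b at 1.61 and miR-204 at 1.85, and they moved with TBI+PMI replicate 1 as given above.

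Of the 59 miRNAs below all naive arrays, 18 were on the Dlk1-Dio3 list, others were on the lists named above, and 28 were on none. Those 28 included miR-383, miR-335, miR-873, the star arms and neighbours of Dlk1-Dio3 hairpins, and miR-135a and miR-135b, which share a seed and had differences of -0.35 and -0.58. They also included miR-328 (-0.57), miR-551b (-0.51), miR-344-3p (-0.50) and miR-331 (-0.46), with adjusted p between 0.0834 and 0.128 (limma). These were picked after their values were seen.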

How the data were processed

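Hippocampal RNA of 16 rats was hybridised to Agilent Rat miRNA arrays, 1 colour and 1 array a rat. The deposited scanner files hold spot intensity values, background-subtracted by Agilent Feature Extraction 9.5.3.1 and not scaled between arrays. The authors' processed table holds intensity values from GeneSpring, with low values held at 0.01. Its scaling is not given in the sources used here, and it served as an alternative.

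Spots marked as outliers were dropped and the rest averaged by probe. A probe counted as well above background where more than 0.5 of its spots were. Signals were then divided by the 75th percentile of the 284 probes that reached this on all 16 arrays, which was 3250 to 3462 for TBI+PMI and 2561 to 2991 for naive. Each miRNA was represented by 1 probe, the one the study used where it names one, otherwise the brightest. Linear models were fitted with limma 3.58.1 (R 4.3.3, lmFit and eBayes) to the arrays compared alone, all of 1 slide. The number of arrays limits the precision. The arrays are described as separate rats, and p-values measure only the spread between them.

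Named miRNAs were those past the adjusted threshold, filled up to 6 in each direction by the smallest p among those without overlap, the 10 that the study names, and the 2 brightest tested of each of 22 lists; others were named after their values were seen. The comparison, members and lists were chosen with earlier results of these data known. The fit was tested on simulated data. Alternatives were normexp correction (offset 50), other percentiles, quantile or no scaling, summed or brightest probes, the authors' table, other filters, more arrays, a replicate block, an intensity trend, each array left out, and the methods' t-test (over 1.2-fold).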

Additional observations from a re-analysis of the deposited data

Results flagged for a closer look

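miR-21 on the array left out of the comparison, TBI+PMI replicate 3 of the other slide, lay above both sham arrays of that slide. It was at 1.82 there against 0.44 and 0.55 on the sham arrays, which is 1.32 above their mean on the log2 scale (1 array, no test). It was listed because a signal in data outside the comparison exceeded its controls. The values of that array for the 4 miRNAs that fell against naive are given at the end. No group held 4 arrays, so no array could be tested as an outlier.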

How the results depend on the processing

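The arrays of TBI+PMI were 2 and those of naive 3, so single arrays carried the calls, and the number of miRNAs near background limits what could be tested. Against 1 higher and 4 lower, normexp correction gave 1 and 1, a percentile over all probes 6 and 1, the authors' values 4 and 1, all 8 arrays of the slide 0 and 14, and all 16 arrays with a slide term 6 and 28. Quantile normalization, no scaling and no filter each gave 0 higher and 0 lower by limma (47, 31 and 49 at an unadjusted p under 0.05). The methods' t-test gave 3 higher and 27 lower, and 0 and 0 after Benjamini-Hochberg adjustment. Leaving out 1 array gave 0 to 9 higher and 0 to 6 lower. Without both TBI+PMI replicate 1 and naive replicate 2, chosen after seeing the data, it was 1 higher and 0 lower (29 at an unadjusted p under 0.05). For TBI+PMI against TBI the count of 0 became 3 with no scaling, 3 without TBI+PMI replicate 2 (leave-one-out range 0 to 3), 3 with the block described next and 5 by the methods' t-test without adjustment, which left 0 after Benjamini-Hochberg adjustment. The share of lower means was 67.2%, against 63.3% with normexp, 54.2% with quantile normalization, 42.9% with a percentile over all probes, 45.3% in the authors' table and 29.9% with no scaling, and the median over all tested miRNAs was -0.11, -0.07, -0.02, 0.05, 0.03 and 0.17 in the same order. The authors' table held 161 of the tested miRNAs, so its counts, share and median are over those. The cause of these changes was not tested.

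With the replicate number as a block (replicate block) 4 miRNAs were higher (miR-21, miR-223, miR-34b and miR-34c) and 0 lower, with 13 at an unadjusted p under 0.05. Deviations of same-numbered TBI+PMI and naive arrays correlated at -0.31 and -0.26. The deviations of the 2 TBI+PMI arrays mirror each other, so these are not separate checks. They cannot show whether same-numbered arrays were paired.

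The 5 miRNAs past the threshold kept their direction in every alternative run, and so did the medians of the Dlk1-Dio3 and miR-17 cluster lists. Sign changes were all among miRNAs not past the threshold. With normexp miR-195 was at 0.0058 and miR-192 at 0.099. With a percentile over all probes miR-195 was at 0.15, miR-181a 0.091, miR-181b 0.097, let-7a 0.10, miR-29b 0.047, miR-30c 0.10, miR-30e 0.090, miR-338 0.15, miR-34a 0.026 and miR-192 0.12. With a percentile over the probes of the 5 arrays miR-221 was at -0.018 and miR-132 at -0.0099. With quantile normalization miR-195 was at 0.0054, miR-181b 0.082, let-7a 0.12 and miR-30c 0.017. With no scaling miR-195 was at 0.27, miR-181a 0.21, miR-181b 0.22, let-7a 0.22, miR-29b 0.17, miR-29a 0.092, miR-30c 0.22, miR-30e 0.21, miR-125b-5p 0.11, miR-126 0.093, miR-124 0.011, miR-338 0.26, miR-34a 0.14 and miR-192 0.24. In the authors' table miR-195 was at 0.15, miR-181a 0.087, miR-181b 0.091, let-7a 0.098, miR-29b 0.042, miR-30c 0.096, miR-30e 0.085, miR-144 -0.044, miR-338 0.14, miR-34a 0.021 and miR-192 0.12. With TBI+PMI replicate 3 added miR-195 was at 0.076, miR-181a 0.083, miR-181b 0.15, let-7a 0.064, miR-30c 0.13, miR-132 -0.00051 and miR-338 0.12. With the replicate block miR-132 was at -0.012 and miR-192 at 0.0059. Leaving out 1 array gave -0.079 to 0.057 for miR-195, -0.13 to 0.0079 for let-7a, -0.24 to 0.015 for miR-29b, -0.19 to 0.070 for miR-30c, -0.19 to 0.047 for miR-30e, -0.13 to 2.74 for miR-204, -0.20 to 0.45 for miR-210, -0.019 to 0.40 for miR-146b and -0.058 to 0.13 for miR-16. It gave -0.043 to 0.12 for let-7c, -0.12 to 0.15 for miR-221, -0.099 to 0.072 for miR-338, -0.00054 to 0.14 for miR-23b, -0.45 to 0.27 for miR-34a, -0.083 to 0.16 for miR-132, -0.0080 to 0.21 for miR-212, -0.78 to 0.15 for miR-143 and -0.12 to 0.0059 for miR-192.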

Other observations

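The 4 miRNAs that fell against naive were at -4.19 (miR-383), -2.33 (miR-335), -3.22 (miR-376b-5p) and -3.44 (miR-379) on TBI+PMI replicate 3. The sham arrays of its slide were at -3.98 and -3.90 for miR-383, -2.32 and -2.24 for miR-335, -3.30 and -3.06 for miR-376b-5p, and -3.40 and -3.37 for miR-379. From the mean of the sham arrays, TBI+PMI replicate 3 differed by -0.25, -0.05, -0.04 and -0.05 in the same order. For miR-376b-5p it lay between the sham arrays. These differences were not tested. Each of these sham values was below the 3 naive values of the same miRNA on the other slide. Sham and naive arrays lay on different slides, so slide and group cannot be told apart in that difference.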
